A study of Mus musculus with 16 samples.

Results

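The genes described here encode enzymes that turn over amino acids, a tricarboxylic acid cycle intermediate or vitamin A, and whose products act on immune cells: Ido1, Ido2, Il4i1, Aldh1a2, Nos2, Arg1, Arg2 and Acod1. They were followed in dendritic cells (DCs) of mice with and without Ciita, the master regulator of MHC class II transcription. Members were found by gene symbol, and the probe set with the highest mean over all arrays stood for each gene. By this rule 7 of the 8 genes had a value among the 19938 genes measured. The 1 probe set for Il4i1 also carries another symbol, so Il4i1 has no value here. The probe sets (and chromosomes) were 10577655 for Ido1 and 10577645 for Ido2 (both on 8), 10586865 for Aldh1a2 (9), 10379228 for Nos2 (11), 10368343 for Arg1 (10), 10396831 for Arg2 (12) and 10416837 for Acod1 (14).

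The study used 16 Affymetrix Mouse Gene 1.0 ST arrays from 8 mice, each mouse giving 1 array of CD24+ DCs and 1 array of CD172a+ DCs. CD24 marks cDC1 in Flt3l cultures and in spleen and CD172a (Sirpa) marks cDC2. All mice were B6 and carried 1 GFP allele at the DC gene Zbtb46 (Zbtb46 GFP/+). KO mice were Ciita -/- and WT mice Ciita +/+. Cultured cells came from bone marrow grown for 9 days in 5% Flt3l, then treated with gamma interferon (for 16 or 22 hours, since the descriptions differ) and with LPS for 4 hours. Spleen cells were taken at steady state. The 8 groups (culture CD24+ KO and WT, culture CD172a+ KO and WT, spleen CD24+ KO and WT, spleen CD172a+ KO and WT) held 2 arrays each, from different mice. Culture and activation go together, and the tissues may have been normalized apart, so these cannot be told apart in any difference between culture and spleen. Neither the age of the mice nor the part of Ciita that is deleted is stated in the sources used here.

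Ido1 and Ido2 are heme enzymes that open the indole ring of tryptophan, the entry step of the kynurenine pathway. Ido1 in DCs is a known brake on T cells, acting through tryptophan depletion and through kynurenines that bind the aryl hydrocarbon receptor, and it is induced by gamma interferon. Nos2 makes nitric oxide from arginine, while Arg1 (cytosolic) and Arg2 (mitochondrial) split arginine into urea and ornithine, so the 3 enzymes draw on 1 substrate. Acod1 (also called Irg1) makes itaconate from cis-aconitate and is a classic LPS-induced gene of macrophages. Aldh1a2 oxidizes retinal to retinoic acid, with which DCs guide regulatory T cells and gut homing. Il4i1 is a secreted L-amino acid oxidase of phenylalanine and tryptophan.

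All values below are log2 signals, so a difference of 1 is a doubling of signal, and differences are given ± SE. Array medians were 6.85 to 6.92 in culture and 7.29 to 7.32 in spleen, so culture minus spleen is given relative to the median gene, whose own change as deposited was -0.34 in CD24+ cells and -0.28 in CD172a+ cells. Tests used limma with Benjamini-Hochberg adjustment over all 19938 genes, and a change was called where the adjusted p was under 0.05. The files hold no detection calls, so whether a low signal lies above background is not known, and probe set levels are not compared between genes. H2-Eb1, a Ciita target, was lower in KO arrays in all 4 comparisons, with log2 changes of -3.49 and -5.51 in cultured CD24+ and CD172a+ cells and of -1.89 and -3.14 in spleen CD24+ and CD172a+ cells. Ciita itself was not called in any of the 4, with changes of -1.76, -2.63, 0.03 and -0.23 in that order, and whether its probe set covers the deleted part is not known. The mean of 10 cDC1 markers was 10.7 to 11.07 in cultured CD24+ arrays and 8.98 to 9.21 in cultured CD172a+ arrays, against 12.1 to 12.4 and 8.51 to 8.69 in spleen. The mean of 9 cDC2 markers separated the subsets less in culture (6.38 to 6.58 in CD24+ and 7.02 to 7.27 in CD172a+ arrays) than in spleen (7.34 to 7.57 and 10.2 to 10.3). The cDC1 list holds Cd24a and the cDC2 list Sirpa, genes of the surface markers that define the subsets. These means are therefore not independent of the sort. A pair of arrays stood apart. Culture CD24+ KO replicate 2 had Xcr1 at 9.58 (10.4 to 10.9 in the other 3 cultured CD24+ arrays) and Sirpa at 9.17 (8.36 to 8.43). The whole lists differed less, with a cDC1 mean of 10.70 (10.96 to 11.07) and a cDC2 mean of 6.58 (6.38 to 6.46). Its mean of 8 mature or migratory DC markers was 13.04 (12.65 to 12.85). Its mean of 5 T cell markers was 6.53 (6.15 to 6.17), and the CD172a+ array of that mouse had 6.48. Spleen CD24+ KO replicate 2 had a mean of 9 neutrophil markers of 8.68, against 7.06 in the other spleen CD24+ KO array and 6.48 to 7.33 in WT arrays. For several called results that either array moves, values without it are also given. In bulk RNA, fewer cells of a type and less RNA per cell cannot be told apart.

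**Figure D1:**
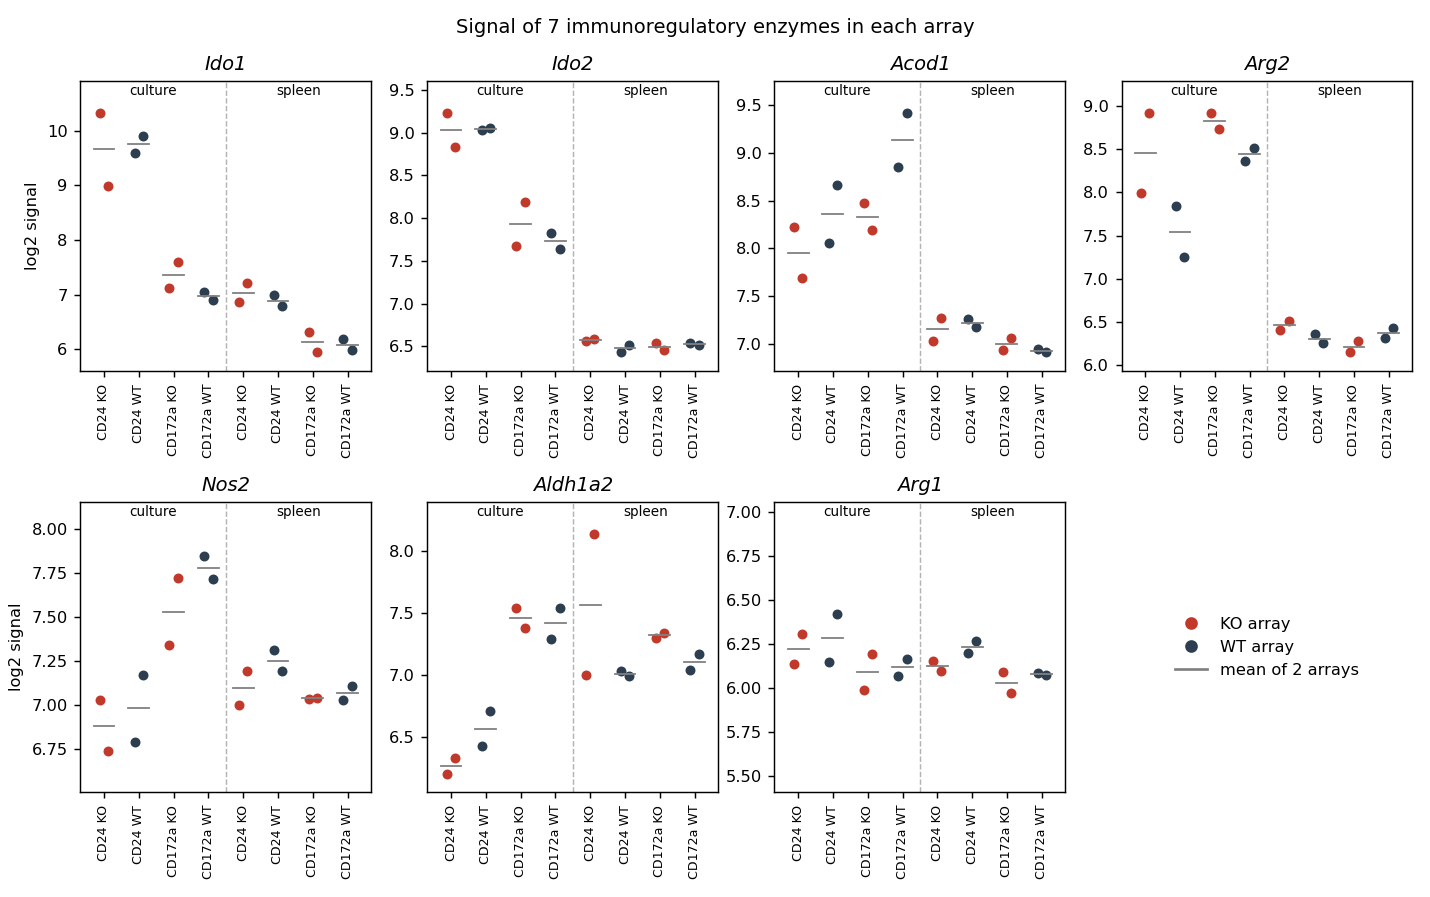
Log2 signal (vertical axis, a scale of its own for each gene) of the 7 measured enzymes in each of the 16 arrays, by group along the horizontal axis. Points are arrays (KO and WT in different colours) and bars the mean of the 2 arrays of a group. Ido1 is highest in the 4 cultured CD24+ arrays (8.99 to 10.33), and the group means of Arg1 span 0.25.

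In activated culture Ido1, Ido2, Arg2 and Acod1 rose in both subsets, and the subsets divided the enzymes: Ido1 and Ido2 were higher in cultured CD24+ cells, while Aldh1a2, Nos2, Arg2 and Acod1 were higher in cultured CD172a+ cells. For Arg2 and Acod1 the arrays of the cultured subsets overlap, and both calls were lost with culture arrays alone (limma, adjusted p = 0.0918 and 0.0917). In culture minus spleen of CD24+ cells, 6 of the 7 were called (5 higher, 1 lower), where 73.0% of all genes were called, 35.9% higher and 37.1% lower. In CD172a+ cells all 7 were called higher, where 73.9% of all genes were called and 36.1% were higher. On the scale as deposited the calls of Arg1 in both subsets and of Aldh1a2 in CD172a+ cells were lost. The median member changed by 1.31 in CD24+ and 1.34 in CD172a+ cells, against 0 for all genes. Between cultured subsets 6 of 7 were called (2 higher and 4 lower in CD24+ cells), against 24.9% of all genes (11.2% higher, 13.7% lower). In spleen 1 of 7, Ido1, was called (higher), against 29.1% (15.6% higher, 13.4% lower). The subset difference changed between tissues for 6 of 7 (2 upward, 4 downward), against 28.2% of all genes (12.5% upward, 15.7% downward). Arg1 was the exception, at 0.02 ± 0.10. Arrays of the groups did not overlap on the deposited scale for 5 of 7 in CD24+ cells between tissues (73.5% of all genes), 5 of 7 in CD172a+ cells (72.3%), 4 of 7 between cultured subsets (22.3%) and 2 of 7 between spleen subsets (33.3%).

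**Figure D2:**
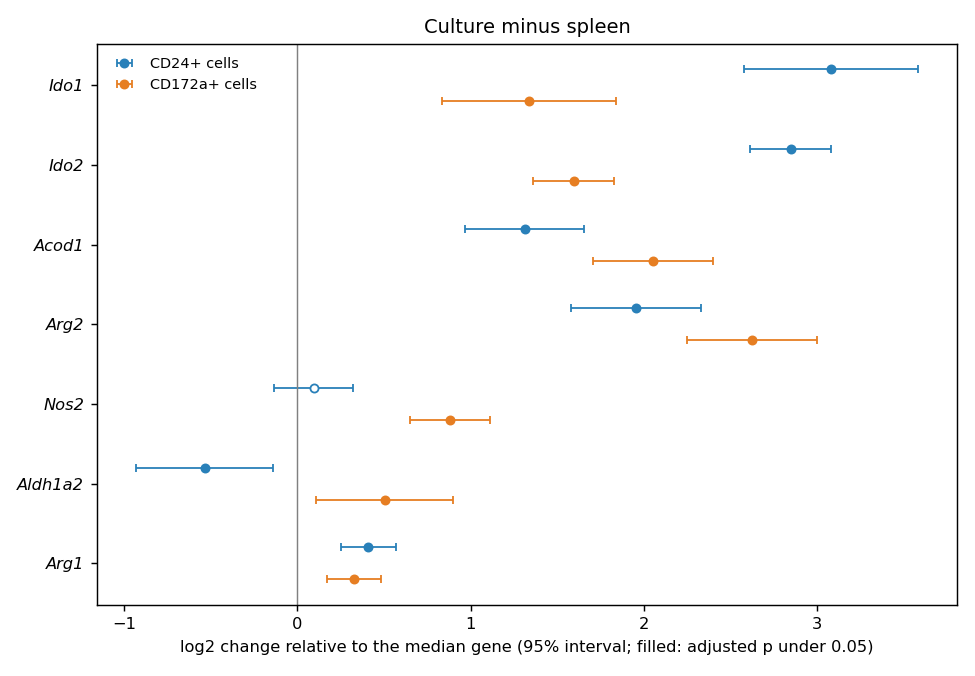
Culture minus spleen for the 7 enzymes (horizontal axis, log2 change relative to the median gene) in CD24+ and CD172a+ cells, with 95% intervals and filled points where the adjusted p was under 0.05. Ido1 changed by 3.08 in CD24+ and 1.34 in CD172a+ cells, Arg2 by 1.96 and 2.63.

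**Figure D3:**
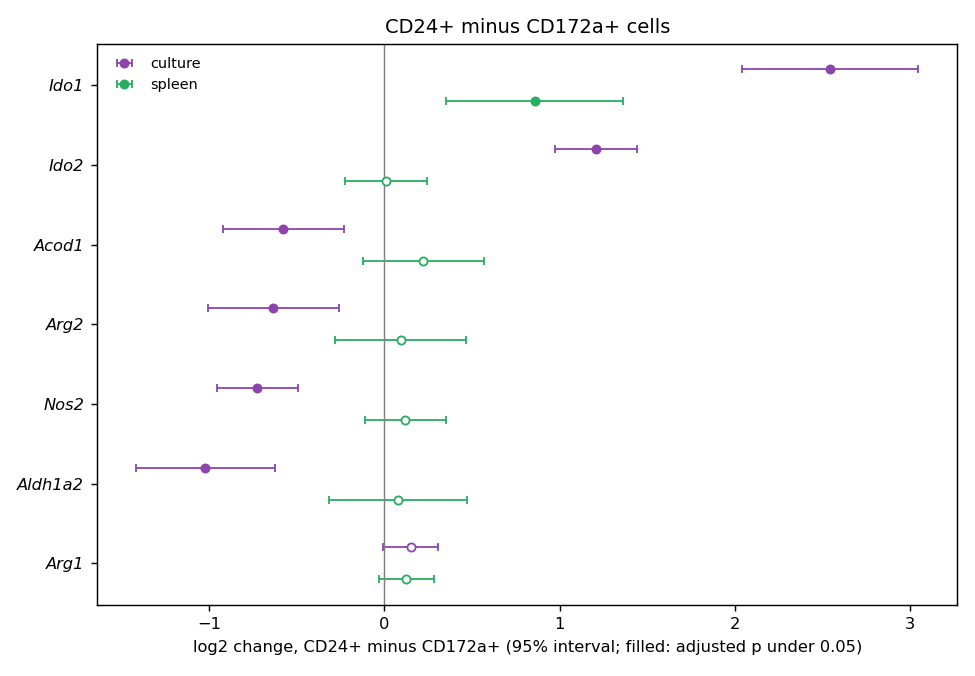
CD24+ minus CD172a+ cells for the 7 enzymes (horizontal axis, log2 change) in culture and in spleen, with 95% intervals and filled points where the adjusted p was under 0.05. In culture Ido1 (2.54) and Ido2 (1.21) lie above 0 and Acod1, Arg2, Nos2 and Aldh1a2 below it, while in spleen only Ido1 (0.86) is called.

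Ido1 was the enzyme with the widest range among groups, and its level followed both culture and subset. In cultured CD24+ cells its log2 signal was 10.33 and 8.99 in KO arrays and 9.60 and 9.91 in WT arrays. In cultured CD172a+ cells it was 7.12 and 7.59 in KO arrays and 7.04 and 6.90 in WT arrays. Every cultured CD24+ array lay above every other array. In spleen CD24+ cells the signal was 6.86 and 7.22 in KO arrays and 6.99 and 6.78 in WT arrays, and in spleen CD172a+ cells it was 6.32 and 5.94 in KO arrays and 6.18 and 5.99 in WT arrays. The group means spanned 3.67 log2 units. The order of levels was cultured CD24+, then cultured CD172a+ and spleen CD24+, whose arrays overlap, then spleen CD172a+.

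Ido1 rose in culture in both subsets, by 3.08 ± 0.23 in CD24+ cells (8.46-fold, adjusted p = 1.25e-07) and by 1.34 ± 0.23 in CD172a+ cells (2.52-fold, adjusted p = 0.000203; limma, n = 4 mice per tissue). In culture it was 2.54 ± 0.23 higher in CD24+ than in CD172a+ cells (5.83-fold, adjusted p = 7.49e-06). In spleen the subset difference was 0.86 ± 0.23 (1.81-fold, adjusted p = 0.0139). That spleen difference stayed between 0.76 and 0.95 when any 1 array was left out, and the call held in 12 of those 16 fits. It was lost without any of 4 spleen arrays (CD24+ KO replicate 2, CD24+ WT replicate 1, CD172a+ KO replicate 2 or CD172a+ WT replicate 2). In all 10 other settings that applied the call held (limma, adjusted p = 0.000234 to 0.0272). The subset difference was larger in culture than in spleen by 1.69 ± 0.33 (adjusted p = 0.00200). The lowest of the cultured CD24+ values, 8.99, belongs to the KO array with the lower Xcr1 and higher Sirpa. Without that array the subset difference in culture was 2.88, culture minus spleen in CD24+ cells 3.42 and the change of the subset difference 2.02.

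Ido2, whose gene lies beside Ido1 on chromosome 8 with 0 annotated genes between them, also rose in culture in both subsets. In cultured CD24+ cells its signal was 9.23 and 8.83 in KO arrays and 9.03 and 9.06 in WT arrays. In cultured CD172a+ cells it was 7.67 and 8.18 in KO arrays and 7.82 and 7.64 in WT arrays. The cultured subsets did not overlap. All 8 spleen arrays lay between 6.43 and 6.58, and there neither subset stood above the other. Culture minus spleen was 2.85 ± 0.11 in CD24+ cells and 1.60 ± 0.11 in CD172a+ cells (7.21-fold and 3.02-fold). In culture Ido2 was 1.21 ± 0.11 higher in CD24+ cells (2.31-fold, adjusted p = 6.36e-06). In spleen the difference was 0.01 ± 0.11 (adjusted p = 0.962), with a 95% interval of -0.22 to 0.24. The subset difference was 1.20 ± 0.15 larger in culture than in spleen (adjusted p = 8.69e-05). Across the 16 arrays Ido1 and Ido2 correlated at a Pearson r of 0.913, a description over arrays that share tissue, subset and mice.

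Other tryptophan and kynurenine genes went both ways. Of 21 measured tryptophan and kynurenine genes, 5 rose and 9 fell in cultured CD24+ cells, and 5 rose and 10 fell in cultured CD172a+ cells. The median gene of the list changed by -0.15 and -0.16, against 0 for all genes after centring, and as deposited 3 rose and 15 fell in CD24+ cells and 3 rose and 14 fell in CD172a+ cells. Of all genes, 35.9% were called higher and 37.1% lower in cultured CD24+ cells, and 36.1% and 37.7% in cultured CD172a+ cells. As deposited, most called genes of the whole table were lower. The counts of the other lists below stand beside the same shares. Kmo, which hydroxylates kynurenine, was 6.73 and 7.84 in KO and 6.91 and 7.24 in WT arrays of cultured CD24+ cells and 5.81 to 6.21 in cultured CD172a+ arrays, while all 8 spleen arrays lay between 10.94 and 11.48. It fell by 3.57 ± 0.18 in CD24+ cells and by 5.02 ± 0.18 in CD172a+ cells. Kynu, which cleaves kynurenine and 3-hydroxykynurenine, rose by 2.25 ± 0.17 in CD24+ cells. Slc36a4, an amino acid transporter that carries tryptophan, changed by -3.15 ± 0.06 and -3.55 ± 0.06 in CD24+ and CD172a+ cells. Wars, the tryptophanyl-tRNA synthetase, rose by 2.09 ± 0.07 in CD172a+ cells. Ahrr, a repressor and target of the aryl hydrocarbon receptor, rose by 3.14 ± 0.17 and 1.40 ± 0.17, and the receptor Ahr, named after its values were seen, changed by -2.77 ± 0.07 and -3.54 ± 0.07 in CD24+ and CD172a+ cells.

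Between subsets in culture, 7 of these 21 genes were higher and 2 lower in CD24+ cells (11.2% and 13.7% of all genes). Kynu had 12.70 and 12.17 in KO and 12.72 and 12.72 in WT arrays of cultured CD24+ cells, against 11.22 and 10.36 in KO and 11.08 and 11.59 in WT arrays of cultured CD172a+ cells, with no overlap. It was 1.51 ± 0.17 higher in CD24+ cells in culture and 0.78 ± 0.17 lower in CD24+ cells in spleen, a change of 2.30 ± 0.24 between tissues. Ahrr was 1.27 ± 0.17 higher in cultured CD24+ cells. Among genes named after their values were seen, Kmo (1.18 ± 0.18), Ahr (0.91 ± 0.07), Haao (0.79 ± 0.08), the 3-hydroxyanthranilate dioxygenase, and Tiparp (0.67 ± 0.10), a target of the receptor, were also higher. Slc7a5, the large neutral amino acid transporter, was 0.74 ± 0.11 lower in cultured CD24+ cells and 0.44 ± 0.11 higher in spleen CD24+ cells. In spleen 3 of the 21 were higher and 6 lower in CD24+ cells (15.6% and 13.4% of all genes). The subset difference changed between tissues for 13 genes, 9 of them upward, where 28.2% of all genes changed. Each named change had an adjusted p under 0.05.

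**Figure D4:**
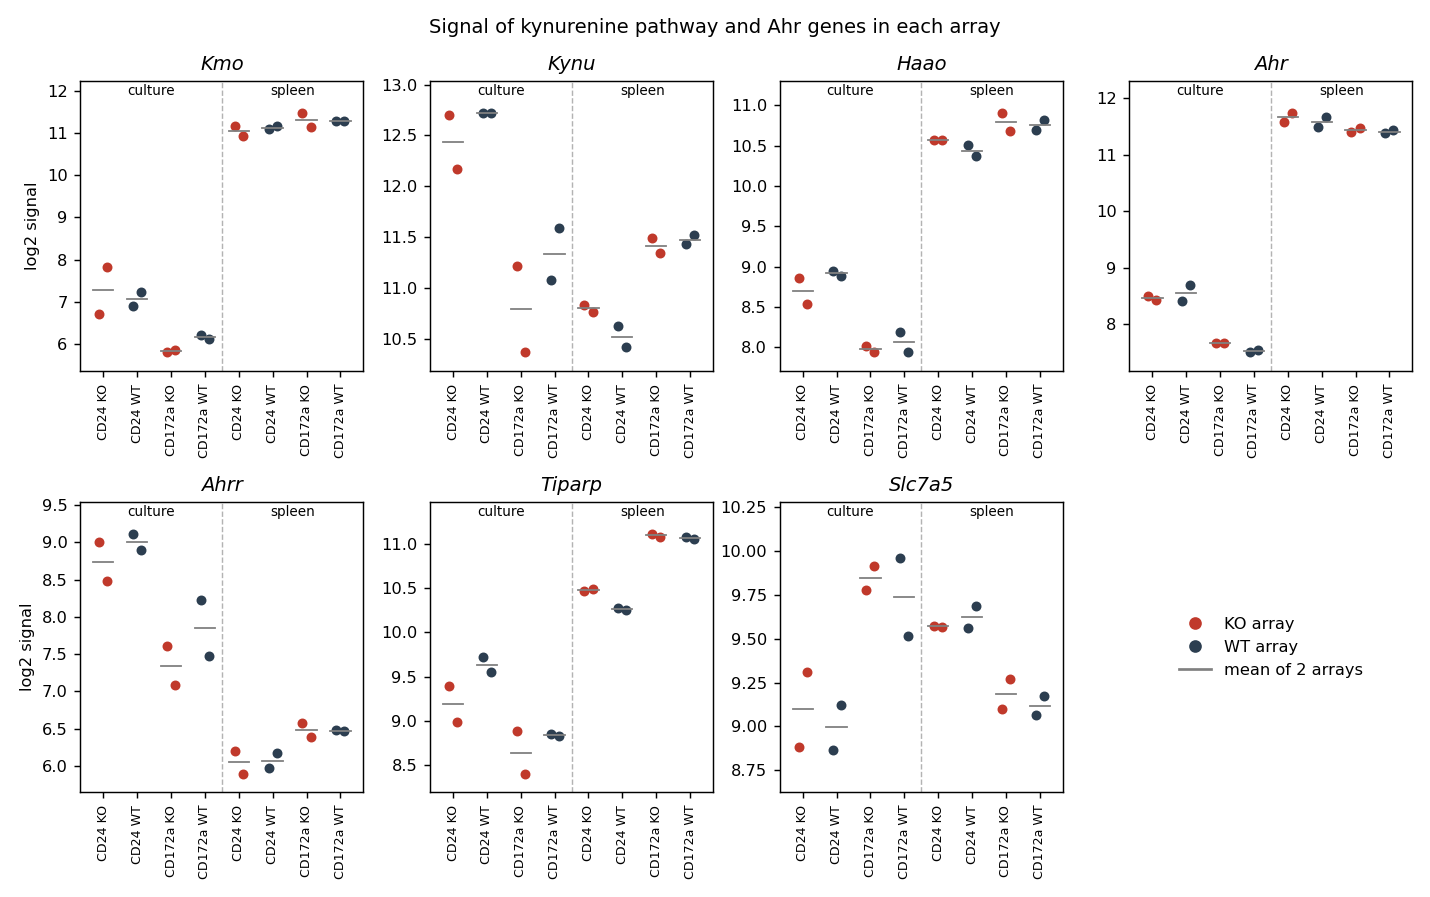
Log2 signal (vertical axis, a scale of its own for each gene) of 7 kynurenine pathway and aryl hydrocarbon receptor genes in the 16 arrays, by group. Points are arrays, bars the mean of 2 arrays. Kmo lies at 5.81 to 7.84 in culture and at 10.94 to 11.48 in spleen, while Kynu is highest in the cultured CD24+ arrays (12.17 to 12.72).

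Promoter sequence was given by RefSeq (build GRCm38.p6) for Acod1, Aldh1a2 and Il4i1. The 250 bases before the start of the Acod1 and Aldh1a2 genes are printed because both enzymes were measured and both were lower in CD24+ than in CD172a+ cells in culture. They lie at chr14:103046762-103047011 and chr9:71215539-71215788, both on the plus strand. Capitals mark motif matches.
Acod1: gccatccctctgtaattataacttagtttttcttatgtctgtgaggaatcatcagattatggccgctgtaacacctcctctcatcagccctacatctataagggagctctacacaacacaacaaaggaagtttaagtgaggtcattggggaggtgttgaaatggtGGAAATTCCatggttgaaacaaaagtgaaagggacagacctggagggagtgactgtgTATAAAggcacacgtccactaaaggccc
Aldh1a2: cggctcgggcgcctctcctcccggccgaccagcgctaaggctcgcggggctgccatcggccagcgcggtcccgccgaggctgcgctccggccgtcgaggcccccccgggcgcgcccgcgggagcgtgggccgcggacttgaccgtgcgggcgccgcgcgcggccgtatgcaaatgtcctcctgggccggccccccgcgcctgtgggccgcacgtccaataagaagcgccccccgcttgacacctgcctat
Both strands were searched for 5 motifs. The kappa B pattern was GGNNNTTCC. The gamma-activated site was written as TTCNNNGAA. The AP-1 pattern was TGANTCA, the TATA box was the usual hexamer TATAAA, and the interferon-stimulated response element was a repeat of GAAA with 2 free bases between the copies. The Acod1 window holds a kappa B match, GGAAATTCC, that begins 85 bases before the start, and a TATA box 28 bases before it, with no match that overlaps another. The Aldh1a2 window, at 77.6% G and C against 44.4% for Acod1, has none of the 5. Among 32851 promoter windows of this length, 15.7% hold the kappa B pattern, 12.4% the TATA box, 7.02% the gamma-activated site, 6.75% the AP-1 pattern and 2.98% the interferon pattern, so a match is a description only.

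Acod1 rose in culture in both subsets and was higher in cultured CD172a+ than CD24+ cells. Its signal was 8.22 and 7.69 in KO and 8.06 and 8.67 in WT arrays of cultured CD24+ cells, and 8.47 and 8.20 in KO and 8.86 and 9.42 in WT arrays of cultured CD172a+ cells. The cultured subsets overlap. The 8 spleen arrays lay between 6.91 and 7.27, below every cultured array. Culture minus spleen was 1.31 ± 0.16 in CD24+ cells (2.48-fold) and 2.05 ± 0.16 in CD172a+ cells (4.15-fold). In culture CD24+ cells were lower by 0.58 ± 0.16 (1.49-fold, adjusted p = 0.0175), a call lost without culture CD172a+ KO replicate 1 (adjusted p = 0.0666), CD172a+ WT replicate 2 (0.0785) or CD24+ WT replicate 1 (0.0748). In spleen the difference was 0.22 ± 0.16 (adjusted p = 0.344), or called with adjusted p = 0.0190 when the mouse was a fixed block. The subset difference changed by -0.80 ± 0.22 (culture minus spleen, adjusted p = 0.0183). Without culture CD24+ KO replicate 2, the array with less Xcr1, the difference in culture was -0.44 and this change -0.67. Without spleen CD24+ KO replicate 2 the change was -0.74.

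Among 26 measured genes of itaconate, citrate and succinate metabolism, 6 rose and 16 fell in cultured CD24+ cells, and 6 rose and 17 fell in cultured CD172a+ cells (as deposited 3 and 19, and 3 and 18). Keap1, the cysteine-rich adaptor that holds Nfe2l2 and that itaconate alkylates, rose by 1.95 ± 0.07 in CD24+ and 2.54 ± 0.07 in CD172a+ cells. Slc25a1, the mitochondrial citrate carrier, rose by 0.74 ± 0.08 in CD24+ cells. Idh3a, a subunit of the cycle's isocitrate dehydrogenase, fell by 1.66 ± 0.13 and Fh1, fumarate hydratase, fell by 1.60 ± 0.09 in CD24+ cells. In CD172a+ cells the cytosolic Idh1 rose by 2.75 ± 0.24, while mitochondrial Mdh2 and Idh2 changed by -2.63 ± 0.08 and -2.37 ± 0.09. Between cultured subsets 11 were higher and 5 lower in CD24+ cells (11.2% and 13.7% of all genes). Nfe2l2, the antioxidant regulator, was 0.87 ± 0.06 higher in CD24+ cells in culture and 0.62 ± 0.06 lower in spleen, and Idh1 was 1.31 ± 0.24 lower in culture and 1.43 ± 0.24 higher in spleen. In spleen 11 genes were higher and 3 lower in CD24+ cells (15.6% and 13.4% of all genes). The subset difference changed between tissues for 12 of the 26, 6 each way, where 28.2% of all genes changed.

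Of the 3 arginine enzymes, Arg2 had the widest range, Nos2 rose in 1 subset and Arg1 was near one level. Arg2 had 7.99 and 8.92 in KO and 7.84 and 7.25 in WT arrays of cultured CD24+ cells. In cultured CD172a+ cells it had 8.93 and 8.73 in KO and 8.36 and 8.52 in WT arrays. All 8 spleen arrays lay between 6.14 and 6.51, below every cultured array, while the cultured subsets overlap. Arg2 rose in culture by 1.96 ± 0.17 in CD24+ cells (3.88-fold) and by 2.63 ± 0.17 in CD172a+ cells (6.17-fold). In culture it was 0.64 ± 0.17 lower in CD24+ cells (1.55-fold, adjusted p = 0.0160), a call lost without culture CD172a+ KO replicate 1 (0.0559), CD172a+ WT replicate 2 (0.0560) or CD24+ WT replicate 2 (0.0777). Without culture CD24+ KO replicate 1 the difference was -0.40 and without replicate 2, the array with less Xcr1, -0.87. In spleen it was 0.09 ± 0.17. The subset difference between tissues was -0.73 ± 0.24 (adjusted p = 0.0415), and this call held in 3 of the 16 fits that left out 1 array, among them the fit without that replicate 2 (-0.96, adjusted p = 0.000509).

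Nos2 was 7.03 and 6.74 in KO and 6.79 and 7.17 in WT arrays of cultured CD24+ cells. In cultured CD172a+ cells it was 7.34 and 7.72 in KO and 7.85 and 7.72 in WT arrays. The cultured subsets did not overlap, and the spleen arrays, at 7.0 to 7.32, overlapped the cultured CD24+ arrays and lay below every cultured CD172a+ array. In CD172a+ cells Nos2 rose in culture by 0.88 ± 0.11 (1.84-fold, adjusted p = 8.32e-06), and in CD24+ cells its difference was 0.09 ± 0.11 (adjusted p = 0.438), or -0.24 as deposited (adjusted p = 0.0506). In culture it was 0.73 ± 0.11 lower in CD24+ than in CD172a+ cells (1.65-fold, adjusted p = 0.000273). In spleen the difference was 0.12 ± 0.11 (95% interval -0.11 to 0.35), and between tissues it changed by -0.85 ± 0.15 (adjusted p = 0.00102). The mean of 12 macrophage and monocyte markers was 7.23 to 7.41 in cultured CD24+ and 6.81 to 6.96 in cultured CD172a+ arrays, against 7.98 to 9.37 in spleen arrays, and their part in the Nos2 values was not tested.

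Arg1 lay between 5.97 and 6.42 in all 16 arrays. It was called higher in culture relative to the median gene, by 0.41 ± 0.07 in CD24+ and 0.33 ± 0.07 in CD172a+ cells. As deposited the differences were 0.07 (adjusted p = 0.369) and 0.05 (adjusted p = 0.551), so this call is set by the scaling. Its subset differences were 0.15 ± 0.07 in culture and 0.13 ± 0.07 in spleen, neither called.

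Of 17 measured genes of arginine, nitric oxide and polyamine metabolism, 3 rose and 9 fell in cultured CD24+ cells and 4 rose and 8 fell in cultured CD172a+ cells (as deposited 2 and 14, and 2 and 13). Ddah2, which clears methylated arginines, rose by 1.03 ± 0.10 in CD24+ and 0.68 ± 0.10 in CD172a+ cells, while Slc7a7, a cationic amino acid exporter, changed by -2.13 ± 0.09 and -2.44 ± 0.09 in CD24+ and CD172a+ cells. Srm, spermidine synthase, fell by 2.22 ± 0.09 in CD24+ cells. Sat1, which acetylates polyamines, fell by 2.44 ± 0.14 in CD172a+ cells. Gatm, which uses arginine for creatine synthesis, was 9.30 and 9.02 in KO and 9.10 and 9.33 in WT arrays of cultured CD24+ cells, against 6.62 to 7.44 in the 4 cultured CD172a+ arrays. It was higher in CD24+ cells by 2.18 ± 0.10 in culture and by 2.61 ± 0.10 in spleen. Slc7a1, the arginine importer, was 0.78 ± 0.09 lower in CD24+ than in CD172a+ cells in culture. Between subsets 4 genes were higher and 2 lower in cultured CD24+ cells (11.2% and 13.7% of all genes). In spleen CD24+ cells 3 were higher and 4 lower (15.6% and 13.4% of all genes).

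Tetrahydrobiopterin is the cofactor of Nos2. Of 6 measured genes of its synthesis and recycling, 1 rose and 4 fell in cultured CD24+ cells and 1 rose and 5 fell in cultured CD172a+ cells (as deposited 0 and 5, and 1 and 5). Gch1, which makes its precursor, rose by 0.52 ± 0.09 in CD24+ cells, a call lost as deposited. Spr, sepiapterin reductase, rose by 0.74 ± 0.12 in CD172a+ cells and was 0.90 ± 0.12 lower in cultured CD24+ than CD172a+ cells. Pts, which makes an intermediate of the same route, changed by -0.96 ± 0.09 and -1.11 ± 0.09 in CD24+ and CD172a+ cells.

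Aldh1a2 was lower in cultured than in spleen CD24+ cells, and lower in CD24+ than in CD172a+ cells in culture. In cultured CD24+ cells it was 6.20 and 6.33 in KO and 6.43 and 6.71 in WT arrays, and in cultured CD172a+ cells it was 7.55 and 7.38 in KO and 7.29 and 7.54 in WT arrays. The cultured subsets did not overlap. In spleen CD24+ cells it was 7.0 and 8.14 in KO and 7.03 and 6.99 in WT arrays, and in spleen CD172a+ cells 7.30 and 7.34 in KO and 7.04 and 7.17 in WT arrays. The value of 8.14 is the highest of the 16 and belongs to the spleen CD24+ KO array with the raised neutrophil markers (S100a8 10.1). That array also had the highest mean of erythroid markers (7.59) and of mast cell and basophil markers (6.24) of the 16. The part of any of these in the Aldh1a2 value was not tested.

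Relative to the median gene, Aldh1a2 was 0.54 ± 0.18 lower in culture in CD24+ cells (adjusted p = 0.0180) and 0.50 ± 0.18 higher in CD172a+ cells (adjusted p = 0.0241). Without that spleen array the CD24+ difference was -0.25 (adjusted p = 0.0251), and without the other spleen CD24+ KO array it was -0.82. The CD24+ call was lost without culture CD24+ WT replicate 1 (adjusted p = 0.0637). As deposited the CD24+ difference was -0.87 (adjusted p = 0.000733). The CD172a+ difference as deposited was 0.23 (adjusted p = 0.269). Relative to the median gene it stayed between 0.45 and 0.56 when any 1 array was left out. That call held in 11 of these 16 fits and was lost in 5 that left out 1 CD172a+ array. In culture Aldh1a2 was 1.02 ± 0.18 lower in CD24+ than in CD172a+ cells (2.03-fold, adjusted p = 0.00113). In spleen the difference was 0.08 ± 0.18 (adjusted p = 0.806), or -0.21 (adjusted p = 0.125) without the array at 8.14 and 0.36 (adjusted p = 0.0115) without the other spleen CD24+ KO array. The subset difference changed by -1.10 ± 0.26 between tissues (adjusted p = 0.00643), and by -0.81 without the array at 8.14.

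Of 20 measured retinoic acid genes, 5 rose and 9 fell in cultured CD24+ cells and 5 rose and 10 fell in cultured CD172a+ cells (as deposited 1 and 13, and 2 and 15). Dhrs3, which turns retinal back into retinol, was 1.32 ± 0.10 lower in CD24+ than in CD172a+ cells in culture and 1.02 ± 0.10 lower in spleen. It also fell by 1.23 ± 0.10 in cultured CD24+ cells. Rdh10, which makes retinal from retinol, changed by -1.23 ± 0.12 and -1.10 ± 0.12 in CD24+ and CD172a+ cells. Aldh1a3, a related retinal dehydrogenase, rose by 0.53 ± 0.05 in CD24+ cells, and Dhrs9, another retinol dehydrogenase, rose by 0.81 ± 0.13 in CD172a+ cells. Between subsets 1 was higher and 2 lower in cultured CD24+ cells (11.2% and 13.7% of all genes). In spleen CD24+ cells 4 were higher and 3 lower (15.6% and 13.4% of all genes).

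The study's comparison, Ciita -/- against Ciita +/+, called none of the 7 enzymes in any tissue and subset. Called genes made up 0.0953% of all genes in cultured CD24+ cells, 0.0602% in cultured CD172a+ cells, 0.0602% in spleen CD24+ cells and 0.0802% in spleen CD172a+ cells. Of the 28 member tests with limma, 2 had an unadjusted p under 0.05, as did 5.86% of the tests of all genes in the 4 comparisons. Arg2 in cultured CD24+ cells was 0.91 ± 0.24 higher in KO arrays (unadjusted p = 0.00274, adjusted p = 0.485), and the KO array at 8.92 is the one with less Xcr1 and more Sirpa. Without that array the difference was 0.45 (adjusted p = 0.582). With that array left as the only KO sample the difference was 1.38 (adjusted p = 0.00203), a fit in which the lone sample is assumed to vary like the other groups. Acod1 in cultured CD172a+ cells was 0.81 ± 0.22 lower in KO arrays (unadjusted p = 0.00368, adjusted p = 0.490). In spleen CD24+ cells Aldh1a2 was 0.56 ± 0.26 higher in KO arrays (unadjusted p = 0.0504), and -0.01 without the array at 8.14. With that array as the only KO sample it was 1.13 (adjusted p = 0.00879).

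Arrays of KO and WT mice did not overlap in 10 of the 28 comparisons, where 30.8%, 36.3%, 34.1% and 37.7% of all genes did not overlap in cultured CD24+, cultured CD172a+, spleen CD24+ and spleen CD172a+ cells. For Ido1, KO minus WT was -0.09 ± 0.33 in cultured CD24+ cells, or 0.58 (adjusted p = 0.562) without the KO array with less Xcr1, and 0.38 ± 0.33 in cultured CD172a+ cells, none of them called. The difference of the genotype effect between subsets was called for 0 of 7 in culture (0.0201% of all genes) and 0 of 7 in spleen (0.0100%), with 0 at an unadjusted p under 0.05. No gene of the lists passed the test between genotypes, where 32 of 408 tests had an unadjusted p under 0.05, beside the same 5.86% of the tests of all genes. With 2 arrays per group these tests leave wide intervals, and a test not passed does not show equal levels.

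**Figure D5:**
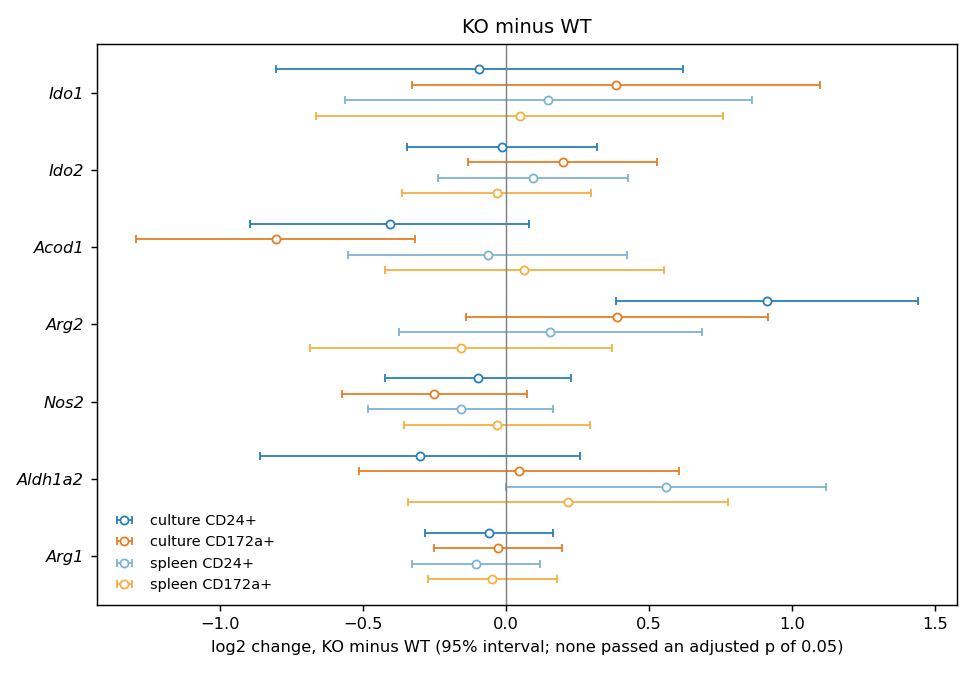
KO minus WT for the 7 enzymes (log2 change, with 95% intervals) in each tissue and subset. None passed an adjusted p of 0.05. The 2 changes farthest from 0 are Arg2 in cultured CD24+ cells (0.91) and Acod1 in cultured CD172a+ cells (-0.81).

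The genes whose 16 array values were most like those of each enzyme, by Pearson correlation, were named for the 5 enzymes whose group means spanned at least 1. They were Stfa2 (0.976), Dmtn (0.974) and Nkiras2 (0.971) for Ido1, and Gpr19 (0.983), Flt4 (0.980) and Mtmr11 (0.977) for Ido2. For Arg2 they were Dock9 (0.990), Hmgn3 (0.990) and Arfrp1 (0.988), and for Acod1 Ikbke (0.965), Klf8 (0.965) and Ube2e1 (0.964). For Aldh1a2 the highest values were lower, with Asb3 and Tnip2 at 0.818 and Hpcal1 at 0.815. Among the enzymes themselves, Arg2 and Acod1 correlated at 0.799 and Ido1 and Aldh1a2 at -0.687. The arrays share tissue and mice, so these values only describe likeness.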

How the data were processed

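Per the labels' protocols, the RNA of sorted DCs was extracted (EZNA MicroElute), cleared of DNA (TURBO DNase), amplified (Ovation Pico WTA) and hybridized to 16 Mouse Gene 1.0 ST arrays. The authors deposited log2 signals for each probe set. How they corrected background and normalized is not given in the sources, and array medians differ between tissues. No counts exist, so the number of arrays limits the precision.

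Of 30177 probe sets, 21789 had 1 gene symbol (21698 named through Entrez IDs), 1621 had several and 6767 none, which left 19938 genes, each by its probe set with the highest mean. The whole table was fitted with limma 3.58.1 in R 4.3.3, with a mean for each group, 8 residual degrees of freedom and 3.95 from the prior, two-sided, with Benjamini-Hochberg adjustment over all genes and a threshold of 0.05. The median change of all genes was subtracted from culture minus spleen. The code was tested on simulated data.

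The arrays of a mouse share that mouse, per the labels. Their group-centred values correlated across genes at 0.393 (culture KO), 0.205 (culture WT), 0.202 (spleen KO) and -0.0957 (spleen WT). The main fit treats them as independent, and the block is an alternative. KO and WT mice are different animals. No 2 arrays held identical values. Nothing says how mice were reared or arrays batched. The p-values of the main fit rest on the spread of arrays from different mice within groups. For differences between subsets of the same mice they do not use the pairing.

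Members, lists and rules were chosen with earlier results of these data known. Of each pathway list, up to 2 called genes higher and 2 lower per comparison, those with the largest changes, were eligible to be named. A change named for 1 subset therefore does not mean that the gene was unchanged in the other. Alternatives covered normalization, centring, a signal filter, probe set choice, the variance model, arrays of 1 tissue, mouse and replicate blocks, and leaving out each array.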

Additional observations from a re-analysis of the deposited data

Results flagged for a closer look

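A difference between CD24+ and CD172a+ cells that was not the same in culture as in spleen picked out 6 of the 7 measured enzymes. Each was called by the interaction term of the limma fit (culture minus spleen, ± SE, with adjusted p). The same term called 28.2% of all genes (12.5% upward, 15.7% downward). The subset difference was more positive in culture for Ido1, by 1.69 ± 0.33 (adjusted p = 0.00200), and for Ido2, by 1.20 ± 0.15 (adjusted p = 8.69e-05). It was more negative in culture for Aldh1a2, at -1.10 ± 0.26 (adjusted p = 0.00643), for Nos2, at -0.85 ± 0.15 (adjusted p = 0.00102), for Acod1, at -0.80 ± 0.22 (adjusted p = 0.0183), and for Arg2, at -0.73 ± 0.24 (adjusted p = 0.0415). The adjusted p of Ido1 was 0.00107 to 0.00565 over the settings other than leaving out arrays. The Arg2 call held in 3 of 16 fits that left out 1 array. Each of these terms sets cultured, activated cells against resting spleen cells. The tissues have different array medians, and only a shift common to both subsets cancels in this term. The median change of all genes in it was -0.06 and was not subtracted. A difference in scale between the tissues would not cancel.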

How the results depend on the processing

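Of 26 called changes, 18 kept their direction and their call in all 11 other settings that applied and in all 16 fits without 1 array, 0 reversed, and 47 of 51 uncalled changes passed in none. Many of these settings could not reverse a change. Each measured enzyme has 1 probe set, so probe set choice left its signals as they were. Blocks, variance models and fits of 1 tissue change the SE and p but not the difference. Leaving out an array outside a comparison does the same. Signs of changes uncalled in both settings are not read (49 changed). Culture minus spleen called 7150 genes higher and 7397 lower in CD24+ cells, against 2750 and 13012 as deposited, and 7202 and 7523 in CD172a+ cells, against 3312 and 12000. The spleen subset count of 1 member became 2 with spleen arrays alone (Acod1, adjusted p = 0.0281) and with mouse as a fixed replicate block (adjusted p = 0.0190), and ran from 0 to 2 in leave-one-out fits. The KO minus WT counts of 0 ran from 0 to 1 in cultured CD24+ cells and from 0 to 1 in spleen CD24+ cells. The Arg2 interaction was lost with replicate number as a block (adjusted p = 0.0703) and with probe sets of several or no symbols (0.0518), and the Arg2 and Acod1 subset calls in culture with culture arrays alone (0.0918 and 0.0917). No other member call changed under a replicate block. Over all genes, KO minus WT called 19 in cultured CD24+ cells (4 with culture arrays alone, 10 to 1269 in leave-one-out fits), 12 in cultured CD172a+ cells (7, and 7 to 45) and 12 in spleen CD24+ cells (18 with probe sets of several or no symbols, and 1 to 35). Genotype by subset called 4 genes in culture (2 with culture arrays alone or replicate number as a block, 8 with mouse as a fixed block, 6 as a random one, 2 to 35 in leave-one-out fits) and 2 in spleen (1 with spleen arrays alone or mouse as a fixed block, 1 to 4). The cause of these changes was not tested. Groups of 2 arrays limit every genotype test.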

Other observations

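Of 12 measured interferon and LPS response genes, 11 rose and 0 fell in cultured CD24+ cells, and 9 rose and 2 fell in cultured CD172a+ cells, relative to the median gene (limma), or 10 and 1, and 8 and 3, as deposited. Relative to the median gene, 35.9% of all genes rose and 37.1% fell in CD24+ cells, and 36.1% and 37.7% in CD172a+ cells. The cytokine Il6 rose by 6.15 ± 0.13 in CD24+ and 6.78 ± 0.13 in CD172a+ cells. Cxcl10, an interferon-induced chemokine, rose by 3.47 ± 0.12 in CD24+ cells, and Il12b, the p40 subunit, rose by 4.55 ± 0.07 in CD172a+ cells. Il1b fell by 2.33 ± 0.17 and Ptgs2, the inducible cyclooxygenase, fell by 0.98 ± 0.19 in CD172a+ cells. Irf1, a gamma interferon target named after its values were seen, was 11.52 to 12.04 in all cultured arrays and 8.71 to 9.08 in all spleen arrays. In culture Tnf was 1.75 ± 0.22 higher and Il1b 1.38 ± 0.17 higher in CD24+ than in CD172a+ cells, while Ccl5 was 0.60 ± 0.07 lower. Between the cultured subsets 3 of the 12 were higher in CD24+ cells, 3 lower and 6 not called, where 11.2% of all genes were higher and 13.7% lower.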
